A study of Mus musculus with 4 samples.

Results

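The miR-26 family was followed in 4 mouse cell lines, each measured on 1 Agilent miRNA array. Its members were all array entries named miR-26a or miR-26b with any number or arm suffix: 5 of the 1023 mouse miRNAs on the array, read by 12 probes. mmu-miR-26a-5p and mmu-miR-26b-5p (written below without the prefix for mouse) are the guide strands, and miR-26a-1-3p, miR-26a-2-3p and miR-26b-3p are the opposite arms of the same hairpins. NSC is a neural stem cell line and OPC a line of oligodendrocyte precursor cells. NSCL61 and OPCL61 are labelled as glioma-initiating cells from neural stem cells and from oligodendrocyte precursor cells. Glioma-initiating cells are cells that can start a glioma. The labels do not say that the NSC and OPC cultures measured here were the parents of these lines. The labels give no strain, age, transforming agent, passage or number of clones for any line, and no replicate culture.

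A miRNA guides the Argonaute protein to messenger RNAs that pair with its seed, the bases near its 5′ end, and lowers their translation and stability. miR-26 is known for repressing Ezh2, the methyltransferase of Polycomb repressive complex 2, which silences genes by methylating histones. In human glioma the gene of miR-26a-2 lies in a region that is amplified in some tumours, whereas miR-26a is lowered in human and mouse liver tumours. The 3 hairpins lie in introns of genes for small phosphatases of the RNA polymerase II C-terminal domain, which help to silence neuronal genes outside neurons.

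All 5 members had a sequence in the RefSeq tables used (GRCm38.p6). The guide strands are shown because the family shares 1 seed, bases 2 to 8, given in capitals. No other mature sequence in that table had it.
miR-26a-5p: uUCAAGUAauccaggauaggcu
miR-26b-5p: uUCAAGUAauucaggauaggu
Counted from the 5′ end of miR-26a-5p, the guides differ by C11U and C21U, and miR-26b-5p is 1 base shorter (21 against 22 bases). Mature miR-26a-5p is made from 2 genes. Mir26a-1 lies at chr9:119031796-119031885 within the span of Ctdspl, and Mir26a-2 at chr10:126995530-126995613 within that of Ctdsp2. Mir26b lies at chr1:74394310-74394394 within that of Ctdsp1. The hairpins are shown, all on the plus strand and with the 5p arm in capitals, because the arrays could not tell which of the 2 miR-26a genes gave the signal.
Mir26a-1: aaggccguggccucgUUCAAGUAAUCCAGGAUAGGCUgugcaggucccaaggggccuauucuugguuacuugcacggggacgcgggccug
Mir26a-2: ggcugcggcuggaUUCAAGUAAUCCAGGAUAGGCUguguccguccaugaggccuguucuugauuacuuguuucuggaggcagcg
Mir26b: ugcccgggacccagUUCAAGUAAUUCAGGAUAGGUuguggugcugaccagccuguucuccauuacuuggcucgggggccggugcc
The probes of both guides covered both differing bases. They are shown as deposited, 5′ to 3′, with the bases opposite these positions in capitals.
miR-26a-5p, brightest probe: aGcctatcctgGatta
miR-26a-5p, other probe: aGcctatcctgGatt
miR-26b-5p, brightest probe: AcctatcctgAattacttga
miR-26b-5p, other probe: AcctatcctgAattacttg
The miR-26a-5p probes pair with bases 7 to 22 and 8 to 22 of their miRNA, and the miR-26b-5p probes with bases 2 to 21 and 3 to 21 of theirs. Binding of a probe to the other member was not tested.

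All 4 arrays lay on 1 slide and came from 1 scan. Between 139 (OPC) and 228 (NSCL61) miRNAs were well above background on an array, and the arrays differed so much in brightness that log2 scaling shifts ran from −1.30 in OPC to 1.44 in NSCL61. Scaling set the 75th percentile of 182 shared probes, those that stood well above background in every line, to 1 common value, so a scaled change is relative to the shared miRNAs of the array and not per cell. miR-9-5p and miR-9-3p, which mark neural progenitors, were well above background in NSC, NSCL61 and OPC and not in OPCL61. miR-219-5p, which marks the oligodendrocyte lineage, was well above background in NSC and not in OPC. miR-338-3p, another miRNA of that lineage, was also brighter before scaling in NSC (37.2 units) and NSCL61 (48.1) than in OPC (20.9) and not well above background in OPCL61. miR-23a-3p, the third of these markers, gave 221 units in NSC and 2788 in NSCL61, beside 150.0 in OPC and 966 in OPCL61. After scaling, the log2 change of OPC against NSC was −1.22 or lower for miR-219-5p, −0.05 for miR-338-3p and 0.23 for miR-23a-3p. The list as a whole thus did not set OPC above NSC, and the direction of miR-23a-3p turned with the scaling. The neuron markers miR-124-3p and miR-128-3p were well above background in NSC (32.3 and 33.9 units) and not in OPC or OPCL61. In NSCL61 miR-128-3p was (26.7 units) and miR-124-3p was not. Another 18 markers stood for blood, endothelial, mesenchymal, muscle, liver, epithelial and endocrine cells. Of these 18, 4 were well above background in NSCL61 (miR-126-3p, miR-199a-3p, miR-214-3p and miR-205-5p), 1 in each of OPC and OPCL61 (miR-199a-3p) and 0 in NSC. Summed over these markers, most of them at the floor, the signal before scaling came to 306 units in NSC and 1064 in NSCL61, with 296 in OPC and 344 in OPCL61. The part of these other markers in the miR-26 values was not tested.

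Both guide strands were well above background in every line, and none of the opposite arms was in any. As the geometric mean over 18 to 20 spots of its brightest probe before scaling, miR-26a-5p gave 163 units in NSC and 510.0 in NSCL61, against 150.0 in OPC and 198 in OPCL61. NSCL61 was thus the highest and the other 3 lines lay close together. The log2 SD over these spots was 0.07 in NSC and 0.04 in NSCL61, with 0.05 in each of OPC and OPCL61. For miR-26b-5p the same quantity was 47.7 units in NSC and 264 in NSCL61, against 40.7 in OPC and 129 in OPCL61, over 18 to 20 spots. Here both glioma-initiating lines lay above both precursor lines. Its log2 SD over spots was 0.15 in NSC and 0.05 in NSCL61, with 0.20 in OPC and 0.13 in OPCL61. The spots of the brightest miR-26b-5p probe ran from 39.9 to 55.5 units in NSC and from 31.6 to 50.1 in OPC, which overlap, but from 247 to 289 in NSCL61 and from 102 to 144 in OPCL61, which do not. The other probe of each guide showed the same order of lines at lower signal. Its mean for miR-26a-5p was 75.7 units in NSC and 246 in NSCL61, beside 72.8 in OPC and 94.0 in OPCL61. For miR-26b-5p it was 27.9 units in NSC and 153 in NSCL61, beside 27.3 in OPC and 81.3 in OPCL61. No spot of either guide was saturated. Spot errors are technical errors within 1 array, and they say nothing about repeat cultures.

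**Figure D1:**
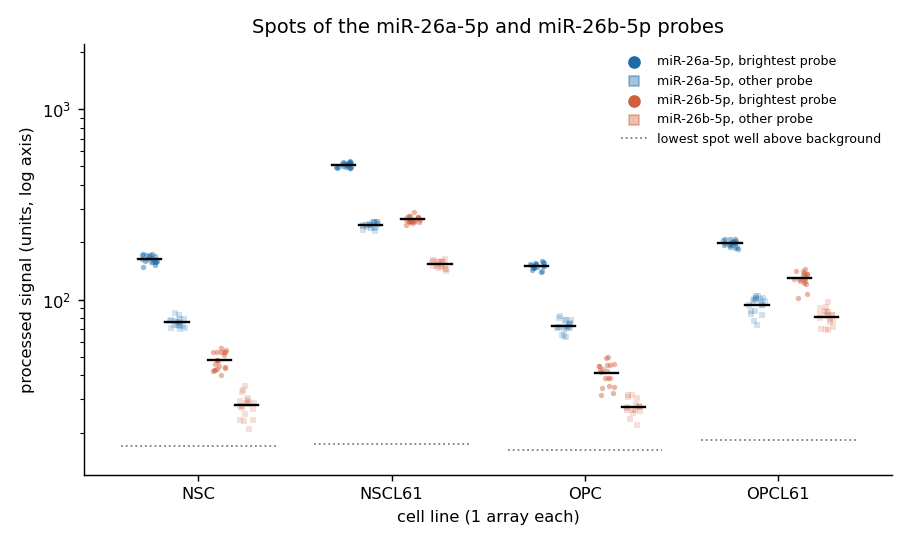
Processed signal (units, log axis) of each spot of the 2 probes of miR-26a-5p (blue) and of miR-26b-5p (orange) in the 4 lines, before scaling, with outlier spots left out; black bars are means over spots and dotted lines the lowest spot signal well above background. In the brightest probes, miR-26a-5p lies near 163 units in NSC and 150.0 in OPC, and miR-26b-5p rises from 47.7 to 264 units between NSC and NSCL61 and from 40.7 to 129 between OPC and OPCL61.

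The opposite arms, the strands that are usually degraded after processing, were covered by 8 probes with 120 spots per array. Of their 480 spots on the 4 arrays, 0 were well above background. Their median signal per probe lay between −2.11 and 5.0 units, where the median negative control spot lay between 2.53 and 3.29. No level is therefore given for miR-26a-1-3p, miR-26a-2-3p or miR-26b-3p, and the arms that would tell Mir26a-1 from Mir26a-2 gave no signal to do so.

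NSCL61 was set against NSC to see how the family differed between glioma-initiating cells and neural stem cells, the cell type they came from. Neither guide passed the rule for a change, which asked for at least 2-fold and more than 2 spot standard errors. Scaled miR-26a-5p was 1.24-fold lower in NSCL61 (log2 change −0.31, spot SE 0.02) and scaled miR-26b-5p 1.43-fold higher (0.51, spot SE 0.04). By this rule 11.8% of the 245 miRNAs well above background in either line were higher and 38.8% lower, which is 29 and 95 of them, against 120 and 17 without scaling. The median scaled change of the 153 miRNAs measured in both lines was −1.03. Relative to that median miR-26a-5p stood at 0.72 and miR-26b-5p at 1.54, with 66.7% and 83.0% of these miRNAs below them. Before scaling both guides were brighter in NSCL61, miR-26a-5p by 3.13-fold and miR-26b-5p by 5.53-fold. Over 5 scalings the change of miR-26a-5p ran from −0.31 to 1.65 and that of miR-26b-5p from 0.51 to 2.47, so the direction of miR-26a-5p turned with the scaling.

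OPCL61 was set against OPC with the same question for the oligodendrocyte precursor lineage. miR-26a-5p was 2.43-fold lower in OPCL61 (scaled log2 change −1.28, spot SE 0.02) and passed the rule, as 20.6% of 214 miRNAs did in that direction and 14.5% in the other (44 and 31 miRNAs, against 4 and 119 without scaling). Scaled miR-26b-5p was at 6.63 in OPCL61 and 6.65 in OPC, a change of −0.02 (spot SE 0.05). The median scaled change of the 131 miRNAs measured in both lines was −0.33, which leaves miR-26a-5p at −0.95 and miR-26b-5p at 0.31 relative to it. Below miR-26a-5p lay 22.1% of these miRNAs, and below miR-26b-5p 58.0%. Unscaled signal was 1.32-fold higher for miR-26a-5p and 3.16-fold higher for miR-26b-5p in OPCL61. The fall of miR-26a-5p was called with 3 of 5 scalings and turned to 0.40 without scaling and to 0.24 with scaling over all probes.

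**Figure D2:**
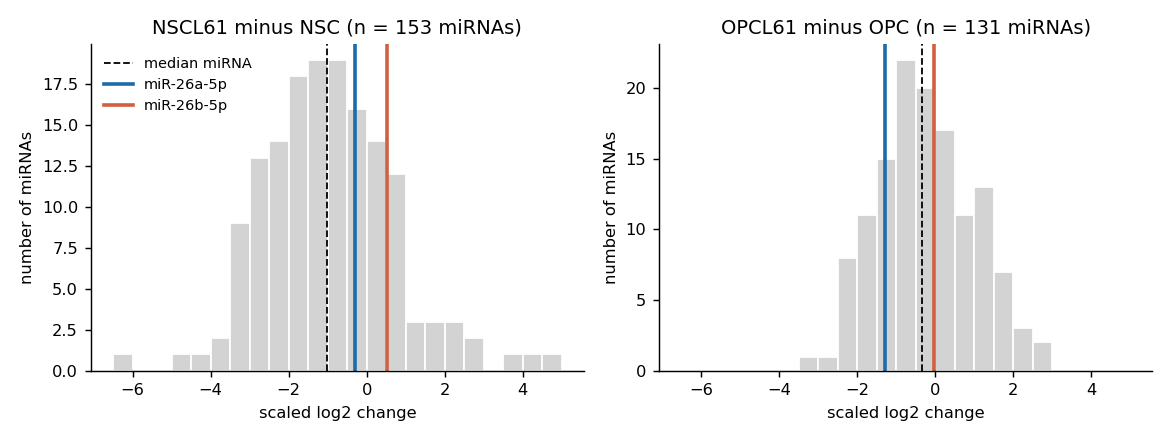
Number of miRNAs by scaled log2 change in each comparison of a glioma-initiating line with the precursor line of its lineage, over miRNAs well above background in both lines, with miR-26a-5p (blue), miR-26b-5p (orange) and the median (dashed). miR-26b-5p lies above miR-26a-5p in both panels, at 0.51 against −0.31 in NSCL61 and at −0.02 against −1.28 in OPCL61.

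In both lineages miR-26b-5p was higher relative to miR-26a-5p in the glioma-initiating line. With the scaling and background used here, the gap exceeded the error between spots and the spread between probes of 90% of miRNAs. That spread is between probes of the same miRNA and does not measure the error between different miRNAs. The difference of the log2 changes of the 2 guides was 0.82 (spot SE 0.04) for NSCL61 against NSC and 1.26 (spot SE 0.06) for OPCL61 against OPC. This makes a shift of 1.76-fold and 2.4-fold, and a factor common to a whole array cancels in it. Each of the 4 pairings of a miR-26a-5p probe with a miR-26b-5p probe gave the same sign, with 0.77 to 0.82 in the neural stem cell lineage and 1.18 to 1.3 in the other. As a measure of probe error, the changes of the probes of 1 miRNA spread by a median of 0.09 in each of these comparisons over the 73 miRNAs that had several such probes in every line, and 90% of them by at most 0.29 in either. The largest spread was 0.92 in NSCL61 against NSC, above the gap of 0.82 there, and 0.55 in OPCL61 against OPC. The 2 probes of a guide overlap almost wholly in sequence, so the 4 pairings are not independent. The total signal that the scanner software gives per miRNA rose 4.26-fold for miR-26a-5p and 7.39-fold for miR-26b-5p in NSCL61, and 1.31-fold and 3.08-fold in OPCL61. With normexp background correction, which here adds an offset of 50 to every signal, the difference shrank to 0.21 and 0.60. Over the 2 lineages the mean difference was 1.04 ± 0.31 (SD, n = 2), above 0 in both, and a two-sided exact sign-flip permutation test gave p = 0.5, the smallest that 2 lineages allow. Within 1 lineage, with 1 array per line, no test was possible.

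Between the precursor lines, OPC against NSC, the difference of log2 changes was −0.11 (spot SE 0.06), with −0.17 to 0.10 over the probe pairings. Between the glioma-initiating lines it was 0.33 (spot SE 0.04) for OPCL61 against NSCL61. miR-26b-5p was the dimmer probe set, so changes at like signals are given beside this. The 64 other miRNAs whose NSC signal lay within 2-fold of that of miR-26b-5p had a median unscaled log2 change of 0.77 in NSCL61 (quartiles −0.46 and 1.89). The 44 like miR-26a-5p had 1.45 (−0.18 and 2.43), a gap opposite in sign to that of the miR-26 guides. In the oligodendrocyte precursor lineage the medians were 1.5 over 68 miRNAs (0.74 and 2.34) and 1.24 over 38 (0.03 and 2.64), a gap of 0.26 in the same direction as the 1.26 of the guides. The quartiles overlapped widely in both lineages, and only miRNAs well above background in both lines were counted.

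Unequal change within a seed family was common on these arrays. Of the 105 miRNAs well above background in all lines, 82 matched a RefSeq mature sequence, and they formed 66 pairs with a shared seed over 13 seeds, many of them let-7 pairs that share members. The median size of the difference between the 2 changes of a pair was 0.56 in NSCL61 against NSC and 0.65 in OPCL61 against OPC. A difference at least as large as that of the miR-26 pair was seen in 28 of the 66 pairs in the first comparison, in 16 in the second, and in 11 in both with 1 direction, the miR-26 pair included in each count.

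**Figure D3:**
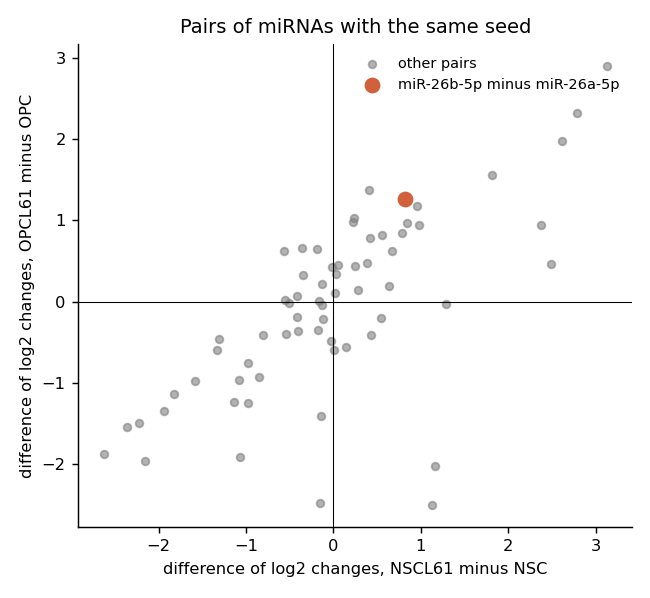
Each point is a pair of miRNAs with the same seed, placed by the difference of their log2 changes (second name minus first, in alphabetical order) in NSCL61 against NSC (x axis) and OPCL61 against OPC (y axis). The miR-26 pair (orange) lies at 0.82 and 1.26, among other pairs that differ in both lineages.

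Between the precursor lines, scaled miR-26a-5p was 1.59-fold higher in OPC than in NSC (log2 change 0.67, spot SE 0.02) and scaled miR-26b-5p 1.47-fold higher (0.56, spot SE 0.06). Neither passed the 2-fold rule, by which 14% of 200 miRNAs were higher and 11.5% lower (28 and 23 of them, and 12 and 64 without scaling). Without scaling both were slightly dimmer in OPC, at −0.12 and −0.23. Between the glioma-initiating lines, miR-26a-5p changed by −0.31 (spot SE 0.01) in OPCL61 against NSCL61 and miR-26b-5p by 0.03 (spot SE 0.03), beside 34.8% of 256 miRNAs higher and 12.1% lower (89 and 31 of them, and 40 and 101 without scaling). Without scaling these values were −1.37 and −1.04. The scaled order of the lines was OPC, NSC, NSCL61, OPCL61 for miR-26a-5p, at levels of 8.53, 7.86, 7.56 and 7.25. For miR-26b-5p the levels of OPC (6.65), OPCL61 (6.63) and NSCL61 (6.60) differed by less than the SD over spots of OPC and OPCL61, and NSC was the lowest at 6.09.

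**Figure D4:**
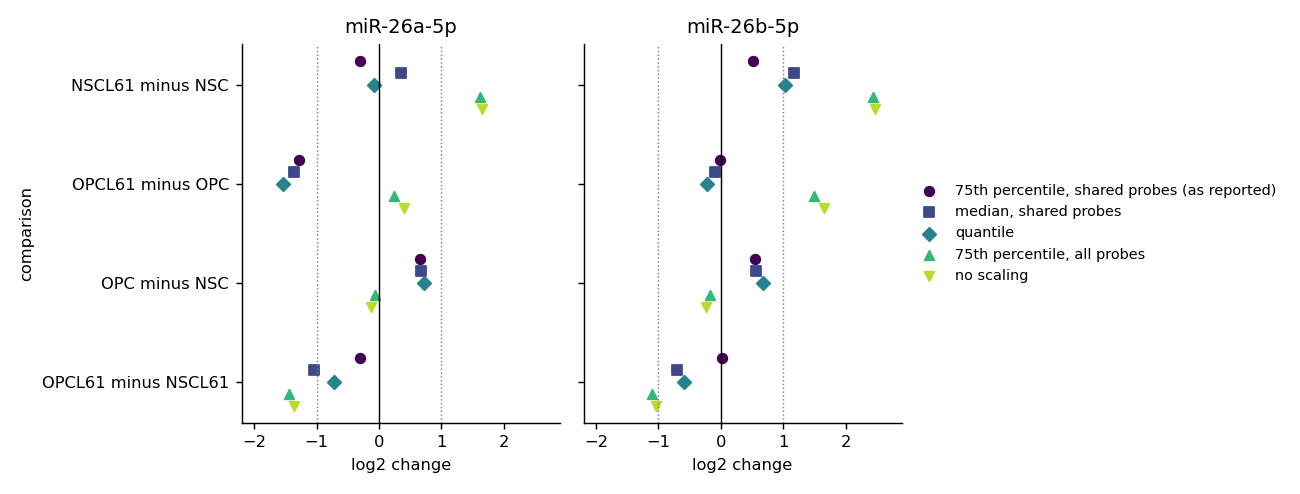
log2 change (x axis) of miR-26a-5p and miR-26b-5p in the 4 comparisons under 5 ways of scaling the arrays; dotted lines mark 2-fold. For OPCL61 minus OPC, miR-26a-5p runs from −1.53 to 0.40 and miR-26b-5p from −0.23 to 1.66, and for OPCL61 minus NSCL61 miR-26a-5p stays below 0 under all 5.

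The 2 glioma-initiating lines were also compared with the 2 precursor lines in 1 limma model with lineage as a term, fitted to 206 miRNAs that stood well above background in 2 lines or more. Its error combines the disagreement between lineages with a prior taken from all fitted miRNAs. miR-26a-5p was lower by a log2 change of −0.79 (SE 0.52, 95% interval −2.2 to 0.61, limma adjusted p = 0.418), lower in both lineages, but the coefficient turned to 1.02 without scaling and to 0.93 with scaling over all probes. miR-26b-5p changed by 0.25 (SE 0.63, 95% interval −1.45 to 1.94, limma adjusted p = 0.812), higher in 1 lineage of 2. In this fit 0% of the miRNAs were higher and 0.485% lower, the latter being miR-9-3p alone, a neural progenitor miRNA at −6.03, and 50 had an unadjusted p under 0.05. The split turned with the processing, to 21 higher and 2 lower without scaling and to 1 higher and 49 lower with normexp. For OPC and OPCL61 against NSC and NSCL61 the values were 0.18 for miR-26a-5p (SE 0.52, 95% interval −1.23 to 1.58, limma adjusted p = 0.928) and 0.29 for miR-26b-5p (SE 0.63, 95% interval −1.41 to 1.99, limma adjusted p = 0.928). By limma 0% of the 206 were called in either direction for lineage, and 17 had an unadjusted p under 0.05. The intervals include changes of over 2-fold in both directions for miR-26b-5p and, for lineage, for miR-26a-5p.

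The patterns of the guides over the 4 lines were closer to those of other miRNAs than to each other. Likeness was the root mean square difference of the scaled log2 levels, each miRNA centred on its own mean, over 4 lines and among the 105 miRNAs well above background in all lines. For miR-26a-5p the closest were let-7b-5p (0.19), miR-361-5p (0.19), miR-30b-5p (0.20), miR-149-5p (0.20) and let-7c-5p (0.26), against a median of 0.78 over all 104 candidates. For miR-26b-5p they were miR-15b-5p (0.13), miR-100-5p (0.26), miR-125b-5p (0.28), miR-1944_v16.0 (0.29) and miR-103-3p (0.30), against a median of 0.81. The guides differed from each other by 0.53, which placed miR-26b-5p at rank 34 for miR-26a-5p, and miR-26a-5p at rank 27 for miR-26b-5p. All 3 of miR-26a-5p, let-7b-5p and let-7c-5p were brighter in OPCL61 before scaling (let-7b-5p at 904 against 634 units, let-7c-5p at 1121 against 997). let-7b-5p and let-7c-5p, which restrain proliferation and growth genes, shared with miR-26a-5p the call of a scaled fall in OPCL61, by 2.25-fold and 2.85-fold. They were picked for likeness over these same arrays, so the shared call follows in part from that choice, and 20.6% of 214 miRNAs had it. let-7c-5p was also called lower in NSCL61, by 2.0-fold, which miR-26a-5p was not. With 4 points per miRNA, close patterns are a description of these arrays.

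**Figure D5:**
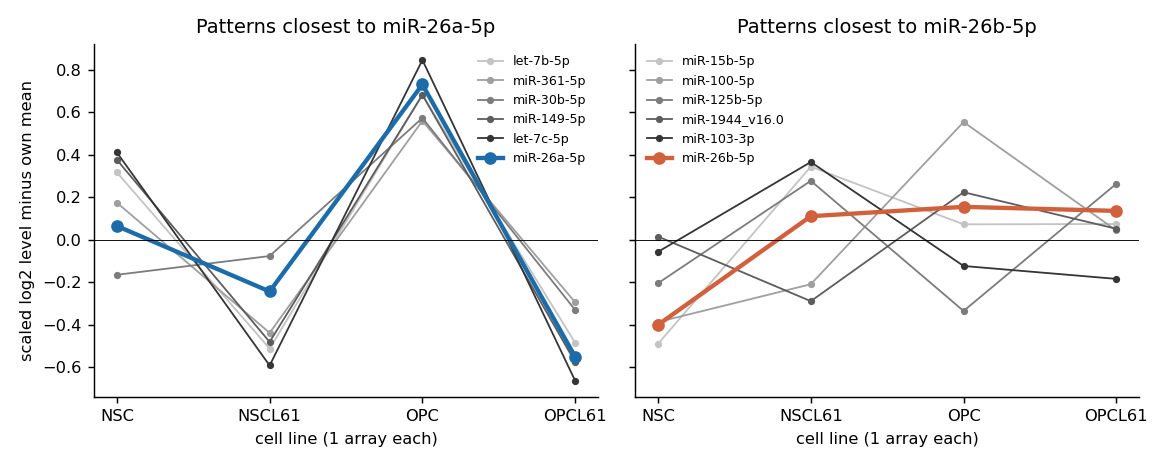
Scaled log2 level minus the miRNA's own mean (y axis) in the 4 lines for miR-26a-5p (blue) and miR-26b-5p (orange), each with the 5 miRNAs closest to it (grey). miR-26a-5p and its neighbours peak in OPC, at 0.73 for miR-26a-5p, whereas miR-26b-5p is low in NSC at −0.40 and nearly level elsewhere.

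miRNAs known to repress Ezh2, both guides among them, were read from a list of textbook regulators. Of 10 Ezh2 regulators on the array, 10 were well above background in NSC or NSCL61, of which 0 were higher and 3 lower, beside 11.8% higher and 38.8% lower over all 245 (median scaled change −0.17, beside −0.13). Lower after scaling were miR-124-3p, a neuronal miRNA, by at least 6.97-fold, miR-138-5p by 2.18-fold and let-7c-5p by 2.0-fold. Before scaling, miR-138-5p (27.2 units in NSC, 48.3 in NSCL61) and let-7c-5p (1270 and 2458) were brighter in NSCL61. miR-124-3p went from 32.3 units to the floor at 17.3. In the OPC comparison 6 were measured, with 0 higher and 3 lower, namely let-7c-5p, miR-26a-5p and let-7b-5p. This stood beside 14.5% higher and 20.6% lower over all 214 (median −0.96, beside 0). In these medians a miRNA below background in 1 line counts as 0 where the floor left its direction open. Over miRNAs measured in both lines alone, the median of all miRNAs was −1.03 in NSCL61 and −0.33 in OPCL61. With the guides left out, the NSC comparison had 8 measured, 0 higher and 3 lower (median −0.43). The OPC comparison then had 4, with 0 higher and 2 lower (median −0.96). Without scaling the counts with the guides included were 6 higher and 0 lower in NSCL61, beside 120 and 17 over all 245. In OPCL61 they were 1 and 0, beside 119 and 4 over all 214. miR-101a-3p and miR-101b-3p, the best known Ezh2 repressors, were below background in NSC and OPC and reached 24.7 and 40.8 units in NSCL61. In OPCL61 miR-101b-3p was well above background at 23.0 units and miR-101a-3p was not. No messenger RNA or protein was measured, so Ezh2 itself has no value here.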

How the data were processed

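RNA of the 4 lines (100 ng per array, Cy3 dye, per the labels' protocols) was measured on 1-colour Agilent miRNA arrays. Image analysis was by Agilent Feature Extraction (10.7.3.1, per the submitters' processing notes). The deposited intensity values had background and spatial trend removed but were not normalized, and probes are annotated on mm9, per the file headers. The deposited series table held the same intensity values (largest difference 0). Other deposited columns flag spots as outliers, saturated or well above background, per the file headers.

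After outlier spots were dropped, each array's lowest spot well above background (16.3 to 18.2 units) served as a floor. Spots were then averaged as log2 values and arrays scaled on shared probes. A probe was well above background if 50% of its spots were, and the brightest probe stood for a miRNA. Where 1 line was below background, its floor gave a bound, set to 0 where the floor left the direction open. limma 3.58.1 in R 4.3.3 (trended prior, Benjamini-Hochberg, threshold 0.05) ran on all 206 miRNAs. The fit was tested on simulated state changes. It called 0.5% of 2-fold, 22.75% of 4-fold and 98.5% of 16-fold changes, so changes of 2-fold or 4-fold were mostly missed there. Every simulated miRNA had the same SD of 0.72 and no lineage effect, which need not hold for the real miRNAs. The rates for the actual fit may therefore differ and were not measured. Groups are the 4 lines named in the labels. The alternatives were other scalings, background correction, probe summaries, outlier handling, fold thresholds and filters. The number of arrays limits precision. The members and lists were chosen with earlier results of these data known. Named miRNAs were the members, the 5 closest patterns to each guide, the 2 largest changes of the list of Ezh2 regulators and the cell type markers, and any further miRNA was chosen after its values were seen. A second list of regulators is not reported here.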

Additional observations from a re-analysis of the deposited data

Results flagged for a closer look

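Each of these rests on 1 array per line, and neither difference was tested. Scaled miR-26a-5p was higher in OPC than in NSC (log2 0.67) but lower in OPCL61 than in NSCL61 (−0.31), opposite directions with a gap of 0.97 between them. Without scaling both values were below 0, at −0.12 and −1.37. Scaled miR-26b-5p was higher in NSCL61 than in NSC (0.51) and at −0.02 in OPCL61 against OPC, a gap of 0.53, where the second value was smaller than its spot SE of 0.05. Without scaling both were above 0, at 2.47 and 1.66.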

How the results depend on the processing

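The scaling decided the direction of most single changes. The gap between the guides kept its sign in both lineages under all 6 alternatives (0.21 to 1.12 for NSCL61 against NSC, 0.60 to 1.3 for OPCL61 against OPC). Not all of these could move it. Removing the floor left it unchanged in both lineages, and keeping outlier spots left it at 0.82 in NSCL61 against NSC. The cause of the gap was not tested. With 1 array per line no repeat culture can be set against any of these values. No paired analysis was possible because the labels carry no replicate numbers. The exception is the pairing of each glioma-initiating line with the precursor line of its lineage, which the limma model with lineage as a term uses.

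For miR-26a-5p in NSCL61 against NSC, the log2 change of −0.31 became 1.65 without scaling, 1.62 with the percentile over all probes, 0.36 with median scaling, −0.083 with quantile normalization and 0.086 with the scanner software's total signal. That of miR-26b-5p, 0.51, became 2.47, 2.44, 1.17, 1.04 and 0.88 in the same order, and −0.14 with normexp. In OPCL61 against OPC, miR-26a-5p turned from −1.28 to 0.40 without scaling and 0.24 over all probes. miR-26b-5p turned from −0.02 to 1.66 and 1.5, and was −0.42 with normexp. In OPC against NSC, miR-26a-5p moved from 0.67 to −0.12 without scaling, −0.057 over all probes, 0.49 with normexp and 0.52 with total signal, and miR-26b-5p from 0.56 to −0.23 and −0.17 under the first 2 of these. In OPCL61 against NSCL61, miR-26a-5p moved from −0.31 to −1.37 without scaling, −1.44 over all probes, −1.04 with the median, −0.72 with quantiles, −0.18 with normexp and −0.77 with total signal. miR-26b-5p moved from 0.03 to −1.04, −1.11, −0.71, −0.59, 0.18 and −0.39 in that order.

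The gap between the guides moved to 0.21 (NSCL61 against NSC) and 0.60 (OPCL61 against OPC) with normexp, and to 1.12 in the first with quantiles, an alternative chosen after seeing the data. In OPCL61 against NSCL61 it moved from 0.33 to 0.14 with outlier spots kept and 0.13 with quantiles.

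The number of miRNAs changed in OPCL61 against OPC, 75, was 123 without scaling, 115 over all probes and 38 at 3-fold. In OPC against NSC, 51 became 19 with normexp, 88 at 1.5-fold and 26 at 3-fold, and in OPCL61 against NSCL61, 120 became 72 at 3-fold. The split into higher and lower in NSCL61 against NSC, 29 and 95, was 118 and 19 over all probes, 49 and 73 with the median, 45 and 57 with quantiles and 14 and 100 with normexp. In OPCL61 against OPC, 31 and 44 became 109 and 6 over all probes and 13 and 45 with normexp. In OPC against NSC, 28 and 23 became 14 and 58 over all probes. In OPCL61 against NSCL61, 89 and 31 became 32 and 104 over all probes, 52 and 71 with the median and 42 and 49 with quantiles.

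By limma the number called for state, 1, was 14 over all probes (13 higher, 1 lower), 35 with the mean of all probes (0 and 35), 30 with the median (3 and 27), 23 without scaling (21 and 2), 50 with normexp (1 and 49), 5 with quantiles (3 and 2) and 0 among miRNAs well above background on all 4 arrays (19 of them at an unadjusted p under 0.05). For lineage, 0 became 2 over all probes, 2 with the median, 3 without scaling and 2 with quantiles. The state coefficient of miR-26a-5p, −0.79, turned to 0.93 over all probes and 1.02 without scaling, and ranged from −1.28 to −0.31 with 1 lineage left out, as values with no test. That of miR-26b-5p, 0.25, grew to 1.97 over all probes, 2.06 without scaling, 0.54 with the median and 0.40 with quantiles, turned to −0.28 with normexp, and ranged from −0.019 to 0.51. The lineage coefficient of miR-26a-5p, 0.18, turned to −0.75 over all probes, −0.18 with the median and −0.74 without scaling, and ranged from −0.31 to 0.67 with 1 state left out. That of miR-26b-5p, 0.29, turned to −0.64, −0.072 and −0.63 in that order and ranged from 0.025 to 0.56. Neither guide passed the limma threshold under any of the 9 settings with a test: adjusted p for state ran from 0.374 to 0.855 for miR-26a-5p and from 0.188 to 0.903 for miR-26b-5p, and for lineage from 0.665 to 1 and from 0.767 to 0.995. A fit to all 1023 miRNAs could not be made, since 752 of them were well above background on no array.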
